A study of Mus musculus with 2 samples.

Results

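The 4 invariant chains of the T cell receptor (TCR) complex other than its antigen-binding chains, encoded by Cd3g, Cd3d, Cd3e and Cd247, were examined for occupancy by the transcription factor Tcf1 in naïve CD8+ T cells. A Tcf1 peak was assigned to them when its summit lay inside the annotated body of any of these genes or within 50 kb of either end, in the NCBIM37 (mm9) mouse assembly with the GENCODE vM1 annotation. Of 22286 deposited peaks, 23 met this rule. Cd3g, Cd3d and Cd3e are neighbours on chromosome 9, and their windows merge into a stretch of 140 kb that held 11 of the peaks. Cd247 lies apart from them on chromosome 1, and its window of 189 kb held the other 12. The rule used only position, so it did not select on the strength or sequence of the peaks, but it did limit where they could lie.

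The TCR α and β chains bind antigen but have tails too short to signal. They reach the cell surface only in company with the CD3γ, CD3δ and CD3ε chains, which pair with one another, and with a dimer of the ζ chain encoded by Cd247. The tails of these 4 proteins carry immunoreceptor tyrosine-based activation motifs (ITAMs), which the kinase Lck phosphorylates and to which the kinase Zap70 then binds. Tcf1, encoded by Tcf7, is a high-mobility-group DNA-binding protein of the T lineage, and Lef1 is its close homologue.

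Tcf1 chromatin immunoprecipitation and sequencing (ChIP-seq) was carried out with a rabbit antiserum to full-length Tcf1 on GFP+ TCRβ+ CD62Lhi CD44lo-med CD8+ cells sorted from the spleen of mice. A WT and a Tcf1-deficient library were made, 1 of each, and the deposited peak list set the first against the second. The labels give the genotypes as wild type and as Tcf1-/-Lef1-/-, and the series text names hCD2-Cre, Rosa26-lsl-GFP and Tcf1 and Lef1 alleles that were wild-type or both floxed. The study's methods describe the ChIP-seq control as Cd4-Cre+ Tcf7 fl/fl instead, so whether the control cells lacked Lef1 was unsettled between these sources. hCD2-Cre acts mostly in mature T cells and Cd4-Cre already in the thymus. The mice were on a C57BL/6 background, aged 6 to 12 weeks, and their sex in these libraries was not given in the sources used here. After removal of duplicates 36938606 WT fragments and 27625250 Tcf1-deficient fragments were kept. With 1 library in each group there was no replicate check, the p of the peak caller compared 2 libraries and not 2 genotypes, and every interval given here covers counting error only. A peak list does not measure RNA, so neither the sort nor the loss of Tcf7 could be checked against marker genes.

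Each peak has a pileup, which is the number of WT fragments over its summit, and a control level, which is the number of fragments expected there from the Tcf1-deficient library and which the peak caller never set under 5.42. The fold enrichment is the pileup plus 1 over the control level plus 1. A peak was called high-confidence when its fold enrichment was 4 or more, its p was under 1e-05 and its q was under 0.05. At the lowest control level this fold enrichment needed a pileup of 25.

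Windows of sequence around the summits that carried the main results are shown first, in lower case on the plus strand of NCBIM37. The capitals mark the Tcf/Lef core ATCAAAG or its 6-base part TCAAAG, on either strand, and in the second Cd247 window also the Runx string TGTGGTT, which reads AACCACA on the plus strand. The first 2 windows are those of the strongest peak near the Cd3 cluster, in an intron of the neighbouring gene Ube4a at chr9:44762602-44762752, and of the Cd3d promoter peak at chr9:44789756-44789875, where the window stops at the annotated transcript. The next 2 are the strongest peaks of Cd247, both in its first intron, at chr1:167771048-167771198 and at chr1:167767804-167767954. The last, the Cd3g promoter peak at chr9:44788517-44788667, holds neither Tcf/Lef string and is shown for contrast with the Cd3d promoter, which it faces.
Ube4a intron: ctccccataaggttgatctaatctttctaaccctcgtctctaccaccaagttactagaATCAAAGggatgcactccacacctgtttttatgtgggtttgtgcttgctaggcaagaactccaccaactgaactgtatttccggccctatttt
Cd3d promoter: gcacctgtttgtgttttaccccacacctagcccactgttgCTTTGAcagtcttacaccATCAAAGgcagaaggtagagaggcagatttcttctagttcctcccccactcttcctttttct
Cd247 intron, strongest peak: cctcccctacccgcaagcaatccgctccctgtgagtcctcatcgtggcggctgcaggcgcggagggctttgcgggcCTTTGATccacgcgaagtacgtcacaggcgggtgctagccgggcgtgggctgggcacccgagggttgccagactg
Cd247 intron, second peak: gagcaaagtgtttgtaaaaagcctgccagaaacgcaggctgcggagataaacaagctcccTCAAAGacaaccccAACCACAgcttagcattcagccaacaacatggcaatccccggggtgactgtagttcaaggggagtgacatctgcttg
Cd3g promoter: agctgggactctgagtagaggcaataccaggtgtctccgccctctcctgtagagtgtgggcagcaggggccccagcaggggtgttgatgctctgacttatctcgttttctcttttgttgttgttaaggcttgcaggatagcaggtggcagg

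Tcf1 peaks lay at the promoters of all 4 CD3 chain genes, and the one at Cd3d was the strongest. At Cd3g the Poisson interval of the pileup gave fold enrichments of 3.70 to 7.38, which reaches under the minimum of 4. Of the 23 peaks, 18 were high-confidence, which were 9 of 11 (81.8%) near the Cd3 cluster and 9 of 12 (75%) near Cd247, against 85.4% of all deposited peaks. The same number of high-confidence peaks was thus found at each locus, and their median fold enrichment was 11.8 near the Cd3 cluster against 4.99 near Cd247 and 6.86 over all high-confidence peaks. The values of the 2 loci overlapped, ranging from 4.83 to 33.3 near the Cd3 cluster and from 4.05 to 13.9 near Cd247. A fold enrichment of at least 10 was reached by 5 of 9 peaks near the Cd3 cluster and 2 of 9 near Cd247, against 27.4% of all high-confidence peaks. At least 20 was reached by 2 and 0 of them, against 7.98% of all. Both the equal counts and the medians depended on the minimum. With a minimum of 5 the loci held 8 and 4 peaks, and with a minimum of 8 they held 6 and 3, with medians of 14.6 and 11.1.

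**Figure D1:**
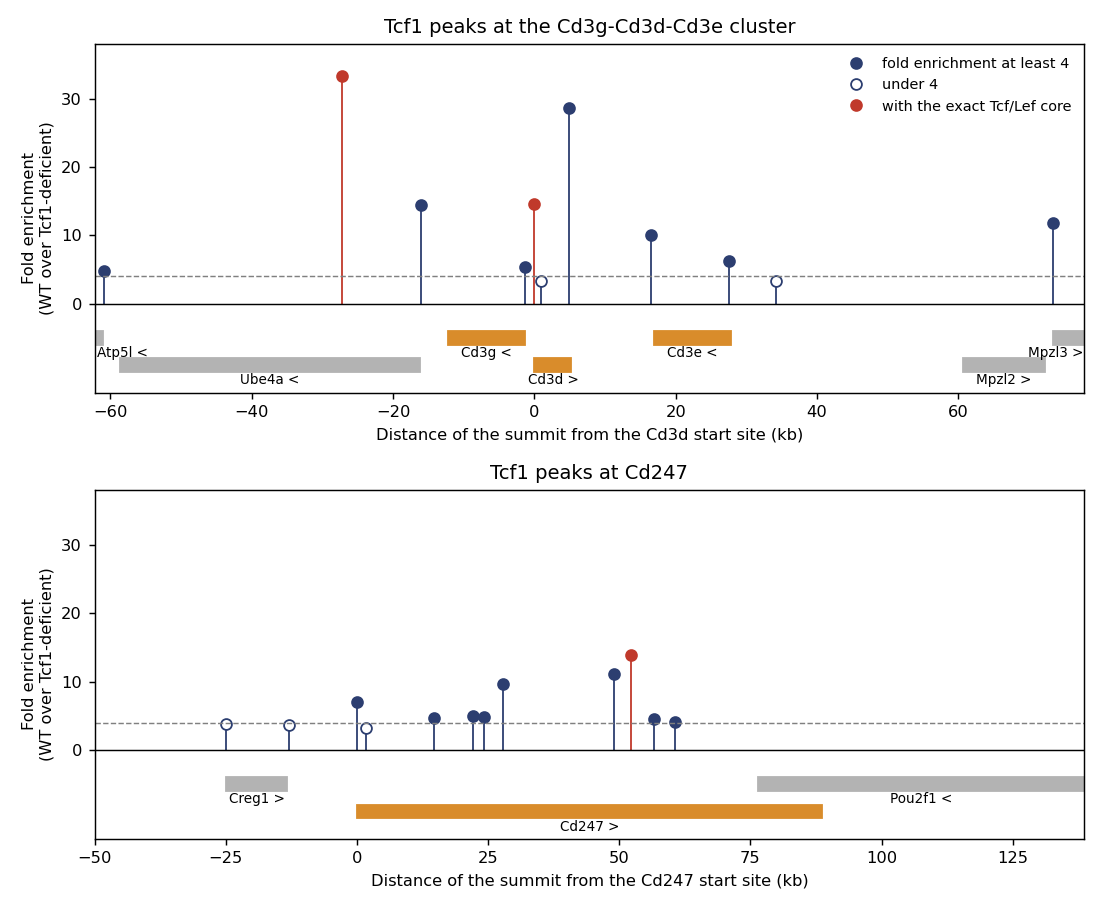
Fold enrichment of WT over Tcf1-deficient cells at each peak summit (vertical axis) by distance in kb from the Cd3d or Cd247 start site (horizontal axis, a different scale in each panel). Filled circles are peaks of fold enrichment at least 4 (dashed line), open circles those under 4, red marks peaks with the exact core ATCAAAG, and bars are genes, orange for the CD3 chains, with < and > giving the direction of transcription. The 2 tallest peaks near the Cd3 cluster, at 33.3 and 28.6, lie in Ube4a and at the end of Cd3d, and the tallest at Cd247, at 13.9, lies inside the gene.

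Cd3g (ENSMUSG00000002033.7, chr9:44777655-44788514, minus strand, 10.9 kb with 7 exons) and Cd3d (ENSMUSG00000032094.7, chr9:44789876-44795135, plus strand, 5.26 kb with 5 exons) start head to head, 1362 bp apart, and encode the chains that each pair with CD3ε. The Cd3d promoter peak (chr9:44789548-44790201) had its summit 45 bp upstream of the start site, with a WT pileup of 93 (95% Poisson interval 75.1 to 114) and a fold enrichment of 14.6 over a control level of 5.42. The Cd3g promoter peak (chr9:44788109-44788696) had its summit 78 bp upstream of its own start site, with a WT pileup of 33 (22.7 to 46.3), the same control level and a fold enrichment of 5.30. The facing start sites thus each had a summit within 100 bp, and the pileup at Cd3d was 2.82 times that at Cd3g (95% interval of the ratio 1.88 to 4.33).

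Cd3e (ENSMUSG00000032093.6, chr9:44806826-44817673, minus strand, 10.8 kb with 8 exons) encodes the chain shared by both CD3 heterodimers and ends 11.7 kb past the end of Cd3d. Its promoter peak (chr9:44817264-44817997) had a summit 240 bp inside the gene, in exon 2, with a WT pileup of 39 (27.7 to 53.3) and a fold enrichment of 6.23. At Cd247 (ENSMUSG00000005763.8, chr1:167718812-167807407, plus strand, 88.6 kb with 8 exons) the promoter peak (chr1:167718631-167719075) had a summit 45 bp inside exon 1, with a WT pileup of 44 (32.0 to 59.1) and a fold enrichment of 7.01. The control level was 5.42 at both. The Cd3d promoter pileup was 2.38 times that of Cd3e (1.62 to 3.56) and 2.11 times that of Cd247 (1.46 to 3.10), while Cd247 and Cd3g could not be told apart, with a ratio of 1.33 (0.830 to 2.16). The Cd3d promoter and the strongest intronic peak of Cd247, described below, could not be told apart, with a ratio of 1.06 (0.781 to 1.43). The pairs of peaks set against each other were 12 in all, chosen with their values known, so these intervals describe counting error and are no test.

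Among all 22350 protein-coding genes, 32.8% had a high-confidence peak within 1 kb of a start site, and the median fold enrichment of these promoter peaks was 6.70. The promoter of Cd3d, at 14.6, was above the upper quartile of these peaks, 9.50, and Cd3g, at 5.30, was close to the lower quartile, 5.21. Of all protein-coding genes, with or without a promoter peak, 3.15% had one as strong as that of Cd3d. The corresponding shares of all genes were 15.6% for Cd247, 19.3% for Cd3e and 24.5% for Cd3g. The values of Cd3e and Cd3g were under the median of 6.70.

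**Figure D2:**
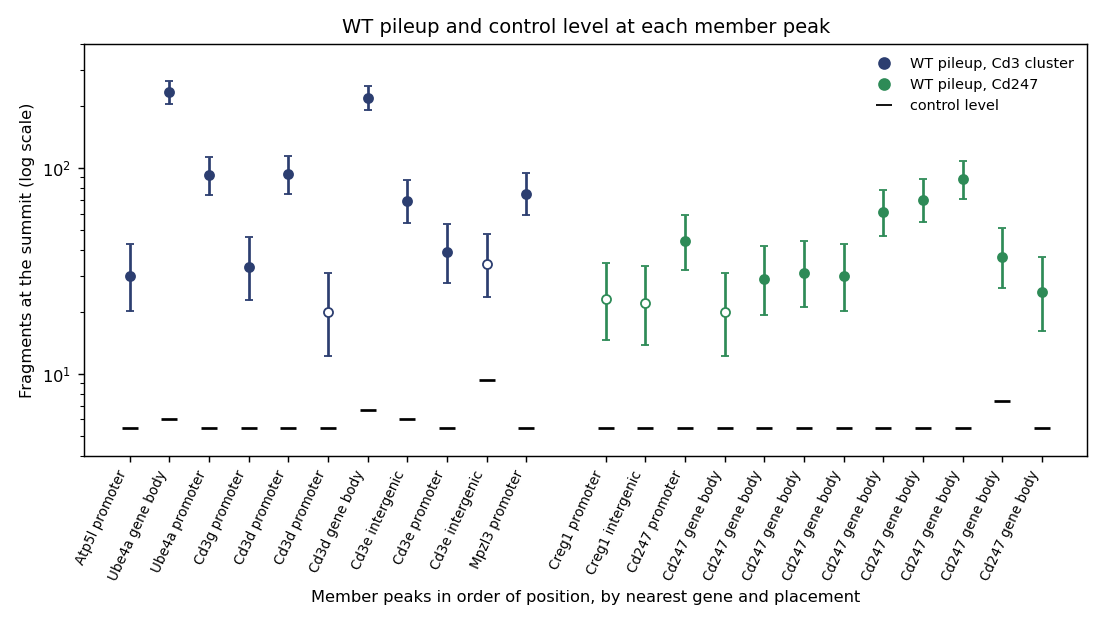
WT pileup in fragments at the summit (circles, with 95% Poisson intervals, log scale) and control level (black dashes) at each of the 23 peaks in order of position, labelled by nearest gene and placement. Open circles are peaks under a fold enrichment of 4. The control level stays between 5.42 and 9.36 while the pileup runs from 20 to 233.

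The strongest Tcf1 peak near the Cd3 cluster was not in a CD3 gene. It lay in intron 3 of Ube4a (chr9:44762352-44763003), a gene for a ubiquitin chain elongation factor, 14978 bp past the end of Cd3g and 25837 bp from its start. Its WT pileup was 233 (204 to 265) over a control level of 6.02, which made a fold enrichment of 33.3 that only 2.27% of all high-confidence peaks reached. The summit was 14 bp from the centre of the core ATCAAAG printed above. Its pileup was 2.53 times that of the Ube4a promoter peak (1.98 to 3.26), which lay 159 bp upstream of the Ube4a start site with a pileup of 92 (74.2 to 113) and a fold enrichment of 14.5. A peak list gives position only, so which gene this site acts on was not tested.

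The second strongest peak lay at the 3′ end of Cd3d (chr9:44793645-44795409), with its summit in the UTR of exon 5, 306 bp before the end of the gene. Its WT pileup was 219 (191 to 250) over a control level of 6.69, which made a fold enrichment of 28.6 that 3.52% of all high-confidence peaks reached. At 1765 bp it was also wide, and 0.536% of high-confidence peaks were as wide. Its pileup was 2.35 times that of the Cd3d promoter (1.84 to 3.03) and could not be told apart from that of the Ube4a intron, which was 1.06 times as high (0.881 to 1.29). No Tcf/Lef string lay within 100 bp of this summit, which held the ETS string CGGAAGT and a CTCF string.

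Cd3e had a further peak on its 3′ side (chr9:44806243-44806772), 437 bp past the end of the gene and between it and Cd3d. Its WT pileup was 69 (53.7 to 87.3) over a control level of 6.02, and its fold enrichment was 9.98. This was 1.77 times the pileup of the Cd3e promoter (1.18 to 2.69). At Cd3d and at Cd3e, therefore, the 3′ peak was higher than the promoter peak of the same gene, and these 2 genes end towards each other. The other high-confidence peaks of the window lay at the promoters of Atp5l (fold enrichment 4.83) and Mpzl3 (11.8), a subunit gene of the mitochondrial ATP synthase and a gene for a myelin protein zero-like membrane protein. The summit at Mpzl3 lay 45.6 kb upstream of the Cd3e start site.

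Cd247 was bound along its interior. All 9 high-confidence summits were inside the gene, 1 at the first start site and 8 in intron 1 of the transcript Cd247-001 (chr1:167719018-167785296), which spans 66.3 kb, or 74.8% of the gene and 35.1% of the window. The strongest (chr1:167770884-167771436) lay 52.3 kb into the gene, with a WT pileup of 88 (70.6 to 108) and a fold enrichment of 13.9, which 16.2% of all high-confidence peaks reached. The next (chr1:167767619-167768168) was 49.1 kb into the gene with a pileup of 70 (54.6 to 88.4) and a fold enrichment of 11.1. The third was 27.9 kb into the gene with a pileup of 61 (46.7 to 78.4) and a fold enrichment of 9.66. The control level was 5.42 at each of these. The pileups of the strongest and the second could not be told apart (ratio 1.26, 0.908 to 1.75), nor could those of the second and the third (1.15, 0.802 to 1.64), whereas the strongest was 2.0 times the Cd247 promoter peak (1.38 to 2.94).

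The other 5 intronic peaks of Cd247 were weak, with pileups of 25 to 37 and fold enrichments of 4.05 to 4.99. One of them (chr1:167774598-167775802) was 1205 bp wide, with a control level of 7.35. The Poisson interval of the pileup reached under a fold enrichment of 4 for 5 of 9 high-confidence peaks near Cd247 and for 2 of 9 near the Cd3 cluster, against 34.4% of all. The 2 near the Cd3 cluster were the promoter peaks of Cd3g, with a lower bound of 3.70, and of Atp5l, with 3.31. The peak just above the minimum was the last in the intron, 60.5 kb into Cd247, at 4.05, and the one just below it was at the promoter of Creg1, the gene upstream of Cd247, at 3.74. All 5 peaks under the minimum, at fold enrichments of 3.27 to 3.74, had intervals that reached 4, as did 86.4% of all peaks under it, so the call at these summits was not settled by the depth.

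The placement of the peaks was also unlike at the 2 loci. Near the Cd3 cluster 6 of 9 high-confidence peaks were at promoters, 2 in gene bodies and 1 between genes, whereas near Cd247 1 was at a promoter and 8 in the gene body. The rule itself bears on these counts, since the windows were drawn around genes. The Cd3 window holds 7 protein-coding genes and the Cd247 window 3, and over all high-confidence peaks, which were not chosen by distance to a gene, 39.6% were at promoters, 33.0% in gene bodies and 27.4% between genes. Summits inside the span of the CD3 genes were 5 of 9 in 40 kb at the cluster and 9 of 9 in 88.6 kb at Cd247, which is 12.5 and 10.2 per 100 kb. Over the whole windows the density was 6.43 (95% Poisson interval 2.94 to 12.2) and 4.77 (2.18 to 9.06) high-confidence summits per 100 kb, a ratio of 1.35 with an interval of 0.474 to 3.83. These intervals take the 9 called summits of each locus as independent counts. They are not intervals of fragment counts and are no test of a difference between the loci. High-confidence peaks covered 4.83% and 2.33% of the windows. The median gap between neighbouring summits was 11.4 kb near the Cd3 cluster and 4.11 kb at Cd247, where no high-confidence summit lay in the last 28.1 kb of the gene or the 50 kb beyond it. The body of the neighbouring gene Pou2f1 (chr1:167795285-167932809, minus strand) overlaps the end of Cd247 and takes in that flank.

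**Figure D3:**
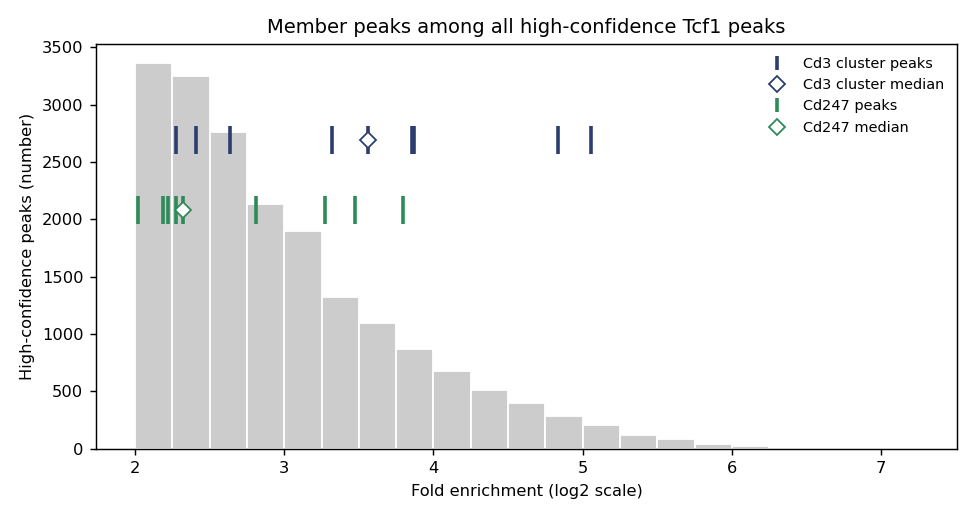
Number of all high-confidence Tcf1 peaks by fold enrichment on the log2 scale (grey bars), with the peaks near the Cd3 cluster (blue ticks) and Cd247 (green ticks) and their medians (diamonds). The heights of the ticks carry no value. The Cd3 cluster median of 11.8 lies to the right of the Cd247 median of 4.99, and the ticks overlap.

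Exact motif strings were looked for on either strand of the 100 bp to each side of every summit and are given beside their share of all high-confidence peaks of the same window. The core ATCAAAG was at 2 of 9 peaks near the Cd3 cluster and 1 of 9 near Cd247, against 10.2%. These were the strongest peak of each locus and the Cd3d promoter, with the centre of the core 14 bp, 4 bp and 14 bp from the summit for the Ube4a intron, the Cd247 intron and Cd3d. The shorter TCAAAG, which the core contains, was at 4 of 9 and 3 of 9 peaks, against 26.4%, and among them was the Cd247 promoter. The core read backwards, GAAACTA, searched as a control, was at 0 of 9 and 1 of 9, against 2.40%. With so few peaks these counts describe the loci and set neither apart from the rest.

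The ETS string CGGAAGT was at 3 of 9 peaks near the Cd3 cluster, which were the Ube4a and Mpzl3 promoters and the 3′ end of Cd3d, and at 0 of 9 near Cd247, against 6.93%. Over all high-confidence peaks these shares differed with placement, the ETS string being at 13.3% of promoter and 2.75% of distal peaks, the GC box at 37.1% and 5.05%, the Runx string at 6.10% and 21.7% and ATCAAAG at 5.13% and 13.5%, so the pooled shares match the makeup of neither locus. The Runx string TGTGGTT was at 0 and 1 of 9 (15.5% of all), the GATA string AGATAA at 1 and 1 (7.42%) and the E-box CAGCTG at 3 and 1 (12.2%). The E-box was at both Cd3e peaks and Mpzl3. The GC box CCCGCCC was at 1 and 1 (17.8%) and a CTCF string at 1 and 0 (8.59%). Control levels above the floor were found at 3 of 9 and 1 of 9 peaks, against 13.7%, and at the cluster these were the Ube4a intron and both 3′ peaks. The part of the control level in these peaks was not tested.

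In the RefSeq promoter sequences (NCBIM37, 250 bases before to 50 after each start site), all 4 CD3 chain genes were found. That of Cd3d held ATCAAAG 55 bp before the RefSeq start site and a further TCAAAG on the minus strand 73 bp before it, which are the capitals in the Cd3d window above. Of 32851 promoters, 3.73% held ATCAAAG and 16% TCAAAG. The Cd247 promoter held TCAAAG, the Cd3g promoter AGATAA (11.2% of all promoters) and CAGCTG (16.3%), and the Cd3e promoter none of the strings searched. A match of letters is a description and not a shown site of binding.

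Scored by the same rule of gene body plus 50 kb, 66.5% of protein-coding genes had at least 1 high-confidence peak, and the median was 1 per gene. Cd3e and Cd3g each had 8, Cd3d 7 and Cd247 9, and genes with at least as many made up 4.64%, 7.10% and 3.06% of all for 8, 7 and 9 peaks. Per 100 kb, Cd3e and Cd3g had 7.22, Cd3d 6.65 and Cd247 4.77, against a median of 0.973 over all genes, and 8.79% of genes were as dense as Cd247. The windows of Cd3g, Cd3d and Cd3e overlap and count the same peaks, so these are not separate observations. A largest fold enrichment of at least 10 was found for 33.5% of all genes and for all 4 CD3 chains, and one of at least 20 for 12.2% of genes and for the 3 genes of the cluster, all through the same Ube4a intron and Cd3d 3′ peaks. A high-confidence peak with ATCAAAG was found for 15.6% of genes and for all 4 CD3 chains.

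Related genes, 16 in a list chosen for their roles (ITAM chains of other immune receptors, the pre-TCR chain, coreceptors, proximal signalling and costimulation), all had at least 1 high-confidence peak, with 2 to 19 each and a median of 7, and their median largest fold enrichment was 20.3, against 10.1 over the protein-coding genes with any such peak. High-confidence promoter peaks were found at 10 of 16, against 32.8% of protein-coding genes. The ITAM chains of other immune receptors (Fcer1g and Tyrobp of Fc and NK cell receptors, Cd79a and Cd79b of the B cell receptor) had no high-confidence promoter peak, and their largest fold enrichments were 19.8, 27.3, 11.5 and 9.50. The pre-TCR chain gene Ptcra also had none at its promoter and reached 7.79. All 4 CD3 chains had a promoter peak, and of their largest values the 13.9 of Cd247 lay within the range of those other chains and the 33.3 of the cluster above it.

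Among the coreceptors, Cd8b1 had the strongest promoter peak of the list (fold enrichment 81.2), Cd8a had 8.26 at its promoter, and Cd4 had none at its promoter and 34.1 at its strongest peak. Of the signalling genes, the kinase gene Zap70 had 29.8 at its promoter, Lck had 19.5 and Fyn 18.7, and the adaptor genes Lat and Lcp2 had 7.27 and 7.51. The promoter values of Cd3e, Cd3g and Cd247 (6.23, 5.30 and 7.01) were thus lower than those of these 3 kinases, with Cd247 close to the 2 adaptors, and Cd3d at 14.6 was between adaptors and kinases. The costimulatory and surface receptor genes Cd28, Cd2 and Cd5 had 20.9, 9.50 and 14.5 at their promoters.

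**Figure D4:**
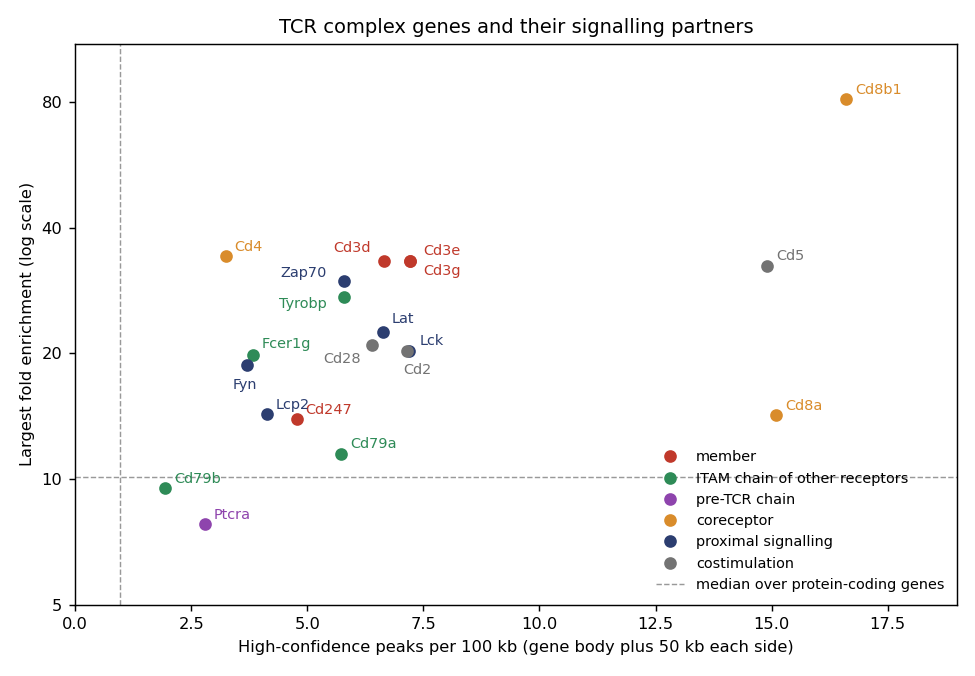
High-confidence Tcf1 peaks per 100 kb of gene body plus 50 kb on each side (horizontal axis) and largest fold enrichment (vertical axis, log scale) for the 4 CD3 chain genes (red) and 16 genes of related receptors and TCR signalling, coloured by role. Dashed lines are medians, 0.973 per 100 kb over all protein-coding genes and 10.1 over the protein-coding genes with any high-confidence peak. Cd3e and Cd3g share a point at 7.22 and 33.3, and Cd247 sits lower, at 4.77 and 13.9.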

How the data were processed

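Tcf1 ChIP-seq was performed by the authors on sorted naïve splenic CD8+ T cells. Per the labels and the study's methods, reads were aligned to mm9 with Bowtie2 (2.2.5), and peaks were called with MACS2 (2.1.1) on 1 WT library against 1 Tcf1-deficient library. The deposited signal (pileup) is the unscaled coverage by WT fragments at the summit. The deposited fold enrichment is a ratio with a pseudocount of 1, and the deposited −log10 p and −log10 q come from a Poisson model of the pileup. The file header states that q was not calculated, but a q was present for each peak (smallest −log10 q 2.65).

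From these values the control level was computed back, summits were placed on NCBIM37 with GENCODE vM1, and exact Poisson intervals (95%) of pileups and exact conditional intervals of pileup ratios were taken with scipy (1.17.1). Scripts were tested on simulated data. The limits for high-confidence peaks followed the study's methods. Promoters were the 1 kb on each side of any annotated start site. Sequences came from the NCBIM37 genome, and promoters from a RefSeq table. The members and the lists of genes and motifs were chosen with earlier results of these data known, and 1 further signalling gene is not reported here. Peaks described singly were the promoter peaks, the strongest 4 at each locus, those with the core, and those nearest to a fold enrichment of 4. The peak on the 3′ side of Cd3e and the wide weak peak of Cd247 fall outside this rule and were chosen after their values were seen. The alternatives tried were other fold and q minimums, flanks of 10 to 100 kb, overlap in place of the summit, wider or protein-coding promoters, and other motif windows and strings.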

Additional observations from a re-analysis of the deposited data

How the results depend on the processing

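Of 45 alternatives to 9 results, none reversed a value and 39 left it within 1.5 times for counts, or within the 95% interval of the value for medians and the density ratio. These intervals are wide, and the median near Cd247 (4.99 to 11.1) and the density ratio (1.35 to 2.69) moved by over 1.5 times inside them with a fold minimum of 8. The number of high-confidence peaks near Cd247 was 4 with a fold minimum of 5 and 3 with a minimum of 8, against 9, since the higher minimum removes weak peaks by construction. Near the Cd3 cluster it was 8 and 6. Promoter peaks of Cd247 were 2 in place of 1, both with promoters of 2.5 kb on each side, which take in an intronic peak 1.09 kb from an annotated U6 RNA, and with no fold minimum, which takes in the peak at Creg1. With the 6 bases TCAAAG in place of ATCAAAG, a looser string, 4 peaks near the Cd3 cluster and 3 near Cd247 held it, against 2 and 1. The density ratio of the loci was 1.11 to 2.69 over its alternatives, and the highest value came with a fold minimum of 8. Medians of the fold enrichment ran from 9.98 to 14.6 near the Cd3 cluster and from 4.75 to 11.1 near Cd247.

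No paired analysis was possible because each group had 1 library. For the same reason no library was left out. Depth limits the weak peaks, since at the lowest control level a pileup of 25 has an interval of 16.2 to 36.9.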

Other observations

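The nearest high-confidence peaks just outside the windows differed between the loci. At the Cd3 cluster they lay 6.14 kb and 3.34 kb beyond the window, nearest to Atp5l and Mpzl3, with fold enrichments of 6.86 and 13.9. Near Cd247 the nearest on the downstream side lay 75.6 kb beyond the window at Pou2f1, the gene of the octamer-binding factor Oct-1, with a fold enrichment of 12.5, and that on the upstream side lay 8.41 kb beyond it near Rcsd1 at 4.05. The weak peaks at Creg1 and between Creg1 and Cd247, at 3.74 and 3.58, were the only deposited ones in the flanks of the Cd247 window.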
